A study of Mus musculus with 9 samples.

Results

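This account follows 40 genes of DNA replication and mitosis in fetal mouse ovaries exposed for a day to a BMP ligand or to an oestrogen. The genes were taken by symbol from a list of cell cycle genes that leaves out CDK inhibitors, and all 40 of 40 were found among the 23420 genes of the count tables. Of them, 18 act in replication licensing and S phase, and 22 act in G2 and mitosis, on the spindle or in its checkpoint. Ovaries of wild-type CD1 mice, collected at E16 (embryonic day 16), were kept for 24 hours on a porous culture insert, in phenol red-free α-MEM supplemented with insulin, transferrin, selenium and linoleic acid. The treatments were vehicle, recombinant BMP2 of human sequence (50 ng/ml), a growth factor of the bone morphogenetic protein family, and E2 (estradiol-17β, 3.67 µM), the main oestrogen. Each gave 3 RNA-seq libraries, 9 in all. Treatments are not spelled out per library: the groups were read from the prefix of each title, with C taken as vehicle and B2 as BMP2. Nothing in the labels ties the libraries to separate cultures or embryos or says whether ovaries were pooled, so the p-values rest on a spread between samples that may be technical.

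A cell licenses its DNA for replication in G1, when CDC6 and CDT1 load the ring-shaped MCM2 to MCM7 helicase onto origins. Cyclin E and E2F1 then start S phase, CDC45 and the GINS complex turn the helicase on, and polymerases held by the PCNA clamp copy the DNA from nucleotides that ribonucleotide reductase and thymidylate synthase supply. In G2 and mitosis, CDK1 with cyclins A and B, polo and aurora kinases, kinesins and kinetochore proteins build the spindle, and the BUB and TTK kinases hold back CDC20 until chromosomes are attached. In the fetal ovary at this age most oocytes have left the mitotic cycle and stand in meiotic prophase, while somatic cells still divide, and several of these proteins also serve meiosis. The libraries are of whole ovaries, so fewer dividing cells and less of these RNAs per cell cannot be told apart.

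Genes of S phase and of mitosis are known to be switched by different promoter elements: E2F sites in the former, and the cell cycle genes homology region (CHR, TTTGAA) beside CCAAT boxes in the latter. RefSeq windows on GRCm38.p6 of 300 bases, from 250 before to 50 after a start, were found for 31 of the 40 genes, with 2 windows for Mcm7. On both strands, TTTGAA was in 12 of 17 windows of the G2 and mitosis genes (70.6%) and in 2 of 15 of the S phase windows (13.3%), against 17.9% of all 32851 windows of that length. An E2F site, searched as TTTCCCGC, TTTGGCGC, TTTCGCGC and TTTGCCGC, which can overlap each other on opposite strands, was in 6 of 15 S phase windows (40%) and in 1 of 17 of the others (5.88%), against 2.26% of all windows. CCAAT was in 10 of 15 (66.7%) and in 15 of 17 (88.2%), against 37.4% of all windows. These are matches of letters, not sites shown to be bound. The 250 bases before the start are given for 4 genes, chosen after their values were seen: Mcm5 and Mcm6, which hold E2F words and encode subunits of one helicase, and Top2a and Mki67, which hold TTTGAA and are the 2 chromosome structure genes. In all 4 these bases lie outside the gene's own annotated transcripts. Each runs 5′ to 3′ on the gene's strand, with matches to any of these words on either strand in capitals.
Mcm5 promoter, chr8:75109259-75109508, plus strand: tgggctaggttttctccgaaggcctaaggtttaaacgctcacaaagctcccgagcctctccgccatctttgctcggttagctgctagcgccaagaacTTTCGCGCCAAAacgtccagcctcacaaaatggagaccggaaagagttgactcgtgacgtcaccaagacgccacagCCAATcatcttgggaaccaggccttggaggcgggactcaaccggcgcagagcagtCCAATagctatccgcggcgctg
Mcm6 promoter, chr1:128359706-128359955, minus strand: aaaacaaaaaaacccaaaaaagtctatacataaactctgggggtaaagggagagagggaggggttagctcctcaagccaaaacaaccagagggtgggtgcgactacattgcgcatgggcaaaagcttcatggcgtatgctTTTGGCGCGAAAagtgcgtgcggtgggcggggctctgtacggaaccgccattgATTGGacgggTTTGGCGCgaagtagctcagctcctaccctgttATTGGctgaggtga
Top2a promoter, chr11:99024190-99024439, minus strand: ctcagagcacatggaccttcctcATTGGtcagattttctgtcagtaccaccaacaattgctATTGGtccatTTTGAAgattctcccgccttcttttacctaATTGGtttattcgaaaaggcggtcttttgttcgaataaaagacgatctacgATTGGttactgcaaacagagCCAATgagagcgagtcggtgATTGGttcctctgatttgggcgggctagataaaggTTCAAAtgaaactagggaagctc
Mki67 promoter, chr7:135716380-135716629, minus strand: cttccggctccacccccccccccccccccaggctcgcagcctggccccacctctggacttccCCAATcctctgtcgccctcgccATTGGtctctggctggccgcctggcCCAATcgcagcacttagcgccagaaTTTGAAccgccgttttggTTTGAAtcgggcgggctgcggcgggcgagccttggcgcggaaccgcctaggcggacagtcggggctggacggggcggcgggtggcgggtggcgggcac
The capitals in Mcm5 and in Mcm6 mark a pair of overlapping E2F words on opposite strands and 2 CCAAT boxes each, and Mcm6 holds 1 more E2F word nearer the start. Those in Top2a mark 2 TTTGAA words and 6 CCAAT boxes, and those in Mki67 mark 2 TTTGAA words and 3 CCAAT boxes.

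Reads assigned to genes numbered 30418674 to 34320077 per library, and every one of the 40 genes passed the filter on low counts, with at least 281 reads in each library. Levels are given in CPM, counts relative to library size after TMM scaling, the between-library scaling of edgeR. Genes of the oocyte (Ddx4, Dazl, Sycp3 and 8 others) and of pregranulosa cells (Foxl2, Wnt4, Kitl and 7 others) were detected in all 9 libraries, as the labelled tissue would hold. Per kilobase of exon, Pcna was at 82.5 ± 2.39 CPM with vehicle (mean ± SD, n = 3), above every other member. Mcm6 (39.0 ± 0.297), Mcm5 (38.6 ± 1.38), Bub1 (36.7 ± 0.774), Top2a (35.3 ± 0.268) and Ccnb2 (34.7 ± 1.24) followed on the same scale, and of these neighbours Mcm6 and Mcm5, and Top2a and Ccnb2, differed by less than their spread. Aurkb (3.48 ± 0.195) and Cdc6 (2.21 ± 0.178) were at the low end, while the subunits of the MCM helicase ranged from Mcm2 at 12.8 ± 0.354 to Mcm6.

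**Figure D1:**
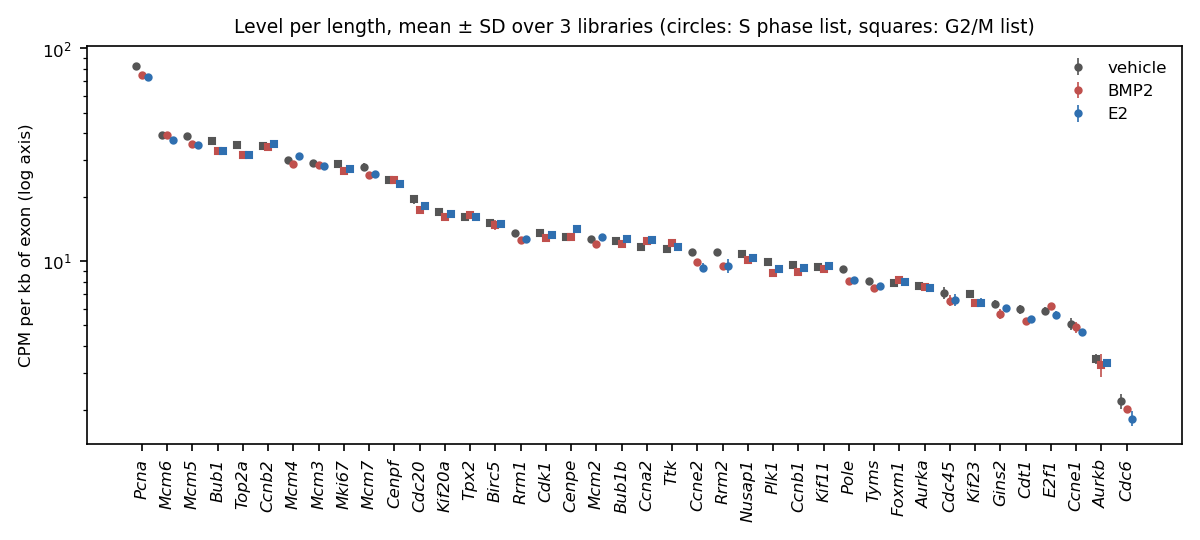
Level of each of the 40 genes per kilobase of exon, in TMM-normalized CPM on a log axis, as the mean with SD over 3 libraries for vehicle (grey), BMP2 (red) and E2 (blue). Circles are replication and S phase genes and squares G2 and mitosis genes; Pcna stands highest and Cdc6 lowest in all 3 groups.

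The comparison of BMP2 with vehicle asks whether the ligand alters the expression of proliferation genes. With BMP2, 17 of the 40 genes fell, none rose, and 23 did not pass (adjusted p under 0.05), where 13.7% of all 16360 genes tested were called, 6.85% lower and 6.84% higher. The fall was seen in 11 of 18 replication and S phase genes and in 6 of 22 G2 and mitosis genes. It was small throughout: the median log2 change was -0.12 over the S phase genes and -0.061 over the G2 and mitosis genes, against -0.0015 over all genes, and no called member differed by over 1.2-fold. In 20 of the 40 genes all 3 BMP2 libraries lay below all 3 vehicle libraries, and in 2 all lay above, against 14.0% and 14.1% of all genes. Vehicle libraries are shared by the comparisons of BMP2 and of E2 with vehicle, so those are not independent of each other.

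Both genes of replication fork proteins fell with BMP2. Pcna, the sliding clamp gene (chromosome 2 from 132249162 to 132253314 on GRCm38), was at 192, 198 and 204 CPM with vehicle, 183, 180.1 and 179.6 CPM with BMP2 and 176, 175 and 180.2 CPM with E2. No BMP2 or E2 library reached the lowest vehicle library, and with BMP2 Pcna was 1.09-fold lower (-0.13 ± 0.022 log2 units, SE, edgeR adjusted p = 2.4e-06). Pole, the catalytic subunit of the leading strand polymerase (chromosome 5 from 110286306 to 110337474), was at 105, 102 and 100.2 CPM with vehicle, 90.7, 90.7 and 90.3 CPM with BMP2 and 90.6, 90.6 and 91.0 CPM with E2. Its treated libraries lay within 1 CPM of each other and below all vehicle libraries, and with BMP2 it was 1.13-fold lower (-0.18 ± 0.028 log2 units, SE, edgeR adjusted p = 3.3e-07).

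All 3 genes of nucleotide synthesis fell as well. Rrm1 and Rrm2, the large and small subunits of ribonucleotide reductase, were 1.08-fold and 1.16-fold lower (log2 fold changes -0.11 and -0.21, adjusted p = 2.7e-04 and 6.4e-04). For Rrm2 the means were 30.6 ± 0.387 CPM with vehicle and 26.4 ± 0.828 CPM with BMP2 (SD, n = 3). Tyms, thymidylate synthase, fell by less certain evidence (-0.11 ± 0.038 log2 units, SE, edgeR adjusted p = 0.0394): the call was lost without BMP2 replicate 1 (0.0998), without BMP2 replicate 2 (0.146), without BMP2 replicate 3 (0.0533), without vehicle replicate 1 (0.125) and without vehicle replicate 2 (0.127), and also with total counts (0.0602) and with no filter on low counts (0.0514).

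Of the 6 helicase subunits, Mcm2, Mcm5 and Mcm7 fell with BMP2. Mcm5 was at 159.9, 154 and 149 CPM with vehicle, 143, 147 and 138 CPM with BMP2 and 142, 139 and 139.8 CPM with E2. The highest BMP2 library was below the lowest vehicle library (-0.11 ± 0.025 log2 units, SE, edgeR adjusted p = 2.1e-04). Mcm7 was at 128, 122 and 118 CPM with vehicle, 114, 112 and 110.2 CPM with BMP2 and 111, 116 and 114 CPM with E2, with both treatments below every vehicle library (-0.13 ± 0.027 log2 units, SE, edgeR adjusted p = 1.0e-04). Exons of other genes, mostly antisense, cover part of Mcm7 (8.7% on the opposite strand), and without strand their reads cannot be told apart. Mcm2 fell (-0.092 ± 0.030 log2 units, SE, edgeR adjusted p = 0.0246), but not without BMP2 replicate 1 (0.225), without BMP2 replicate 3 (0.102), without vehicle replicate 1 (0.163) and without vehicle replicate 2 (0.0725). Mcm3 (-0.038, adjusted p = 0.411), Mcm4 (-0.052, 0.218) and Mcm6 (0.013, 0.769) did not pass.

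Among the genes that start S phase, Ccne2, a cyclin E gene, was at 37.6, 39.0 and 39.96 CPM with vehicle, 35.02, 34.9 and 34.7 CPM with BMP2 and 33.1, 33.9 and 31.0 CPM with E2. The 3 groups did not overlap, with vehicle highest and E2 lowest, and with BMP2 Ccne2 was 1.11-fold lower (-0.16 ± 0.043 log2 units, SE, edgeR adjusted p = 0.00507); Ints8, on the other strand, shares 17.4% of its exon bases. The other cyclin E gene, Ccne1, did not pass (-0.053, adjusted p = 0.689), nor did E2f1 (0.079, 0.418). Of the loading factors, Cdt1 fell (-0.18 ± 0.059 log2 units, SE, edgeR adjusted p = 0.0256) and Cdc6 did not pass (-0.13, 0.254). The call of Cdt1 was lost without BMP2 replicate 1 (0.0559), without BMP2 replicate 2 (0.0607), without BMP2 replicate 3 (0.0898) and without vehicle replicate 2 (0.178). Of the helicase activators, Gins2, a GINS subunit, fell (-0.15 ± 0.051 log2 units, SE, edgeR adjusted p = 0.0312) and Cdc45 did not pass (-0.12, 0.119). Gins2 shares 67.3% of its exon bases with the antisense gene Gse1, and its call was lost without BMP2 replicate 1 (0.250), without BMP2 replicate 2 (0.0702), without vehicle replicate 1 (0.194) and without vehicle replicate 3 (0.0573).

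The G2 and mitosis genes are given by role, and differences between the roles were not tested. Top2a, the topoisomerase that untangles sister chromatids (chromosome 11 from 98992943 to 99024189), had the smallest p-value of all members with BMP2. It was at 317, 317 and 321 CPM with vehicle, 285, 282 and 289.5 CPM with BMP2 and 282, 287 and 287 CPM with E2. Vehicle libraries lay within 5 CPM of each other and all treated libraries below them, 1.11-fold lower with BMP2 (-0.16 ± 0.020 log2 units, SE, edgeR adjusted p = 1.6e-10). Mki67, which encodes Ki-67, a coat protein of mitotic chromosomes and a common proliferation marker, was at 287, 285 and 295 CPM with vehicle, 274, 267 and 263 CPM with BMP2 and 272, 269 and 279 CPM with E2. The treated libraries were again all below vehicle, 1.08-fold lower with BMP2 (-0.11 ± 0.021 log2 units, SE, edgeR adjusted p = 1.3e-05).

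Of the checkpoint genes, Bub1, a kinase of the spindle checkpoint, was at 159, 157 and 164 CPM with vehicle, 148, 139.6 and 145 CPM with BMP2 and 138, 147 and 145 CPM with E2. Its treated libraries lay below every vehicle library, 1.11-fold lower with BMP2 (-0.15 ± 0.024 log2 units, SE, edgeR adjusted p = 3.3e-07). Cdc20, the activator of the anaphase-promoting complex, fell (-0.17 ± 0.044 log2 units, SE, edgeR adjusted p = 0.00423), a call lost without BMP2 replicate 1 (0.0502). The checkpoint kinase genes Bub1b and Ttk did not pass. Bub1b was at 53.5, 53.3 and 52.9 CPM with vehicle, 52.8, 51.5 and 50.4 CPM with BMP2 and 54.0, 57.1 and 52.7 CPM with E2, where the BMP2 libraries lay just below vehicle (-0.047, adjusted p = 0.454). Ttk was at 55.2, 55.8 and 58.3 CPM with vehicle, 59.0, 58.0 and 62.3 CPM with BMP2 and 58.2, 56.7 and 56.6 CPM with E2, with overlap in every pair of groups (0.084, 0.0926; passing without vehicle replicate 3 (0.0410)).

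None of the 5 genes of the mitotic cyclins, CDK1 and FOXM1 passed with BMP2. Ccna2, cyclin A2, was at 47.7, 46.0 and 49.0 CPM with vehicle, 49.8, 53.0 and 50.1 CPM with BMP2 and 51.6, 51.3 and 52.0 CPM with E2. Both treatments lay above all vehicle libraries, unlike most members, but with BMP2 the difference missed the threshold (0.10 ± 0.037 log2 units, SE, edgeR adjusted p = 0.0586) and passed only without vehicle replicate 3 (0.0319) among the fits that left out 1 library. Ccnb1 (-0.11, 0.0714), Ccnb2 (-0.013, 0.871), Cdk1 (-0.076, 0.109) and Foxm1, a transcription factor of mitotic genes (0.046, 0.495), did not pass, although Ccnb1 did without BMP2 replicate 3 (0.0412) and without vehicle replicate 1 (0.0409). Of the kinases with survivin, Plk1, polo-like kinase, fell (-0.18 ± 0.055 log2 units, SE, edgeR adjusted p = 0.0171), but not without BMP2 replicate 1 (0.0697), without BMP2 replicate 2 (0.0812), without vehicle replicate 1 (0.0757) and without vehicle replicate 3 (0.0586). Aurka (-0.014, 0.913), Aurkb (-0.092, 0.506) and Birc5 (-0.022, 0.772), which encodes the chromosomal passenger survivin, did not pass.

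Of the 7 kinesin, kinetochore and spindle genes, Kif23 alone fell with BMP2. Kif23, a kinesin of the central spindle in cytokinesis, was at 55.2, 56.2 and 54.5 CPM with vehicle, 50.8, 49.9 and 50.2 CPM with BMP2 and 50.1, 48.2 and 53.2 CPM with E2. Each treated library was below each vehicle library, and with BMP2 it was lower (-0.14 ± 0.036 log2 units, SE, edgeR adjusted p = 0.00349). Kif11 (-0.028, 0.639), Kif20a (-0.077, 0.0959), Cenpe (-0.0051, 0.938), Cenpf (0.0019, 0.968) and Tpx2 (0.035, 0.529) did not pass. Nor did Nusap1 (-0.089, 0.134), which passed without vehicle replicate 3 (0.0499). Without BMP2 replicate 1 the number of members that fell dropped from 17 to 11, and in the range of all single libraries left out it was 11 to 16. The fits that left out 1 library called at most 2 members higher. DESeq2 did not call Cdt1, Mcm2, Gins2, Tyms and Plk1. Exons of antisense genes also cover 29.3% of Kif20a (Cdc23), 7.09% of Plk1 (Gm44985) and 5.96% of Cdc45 (Ufd1).

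**Figure D2:**
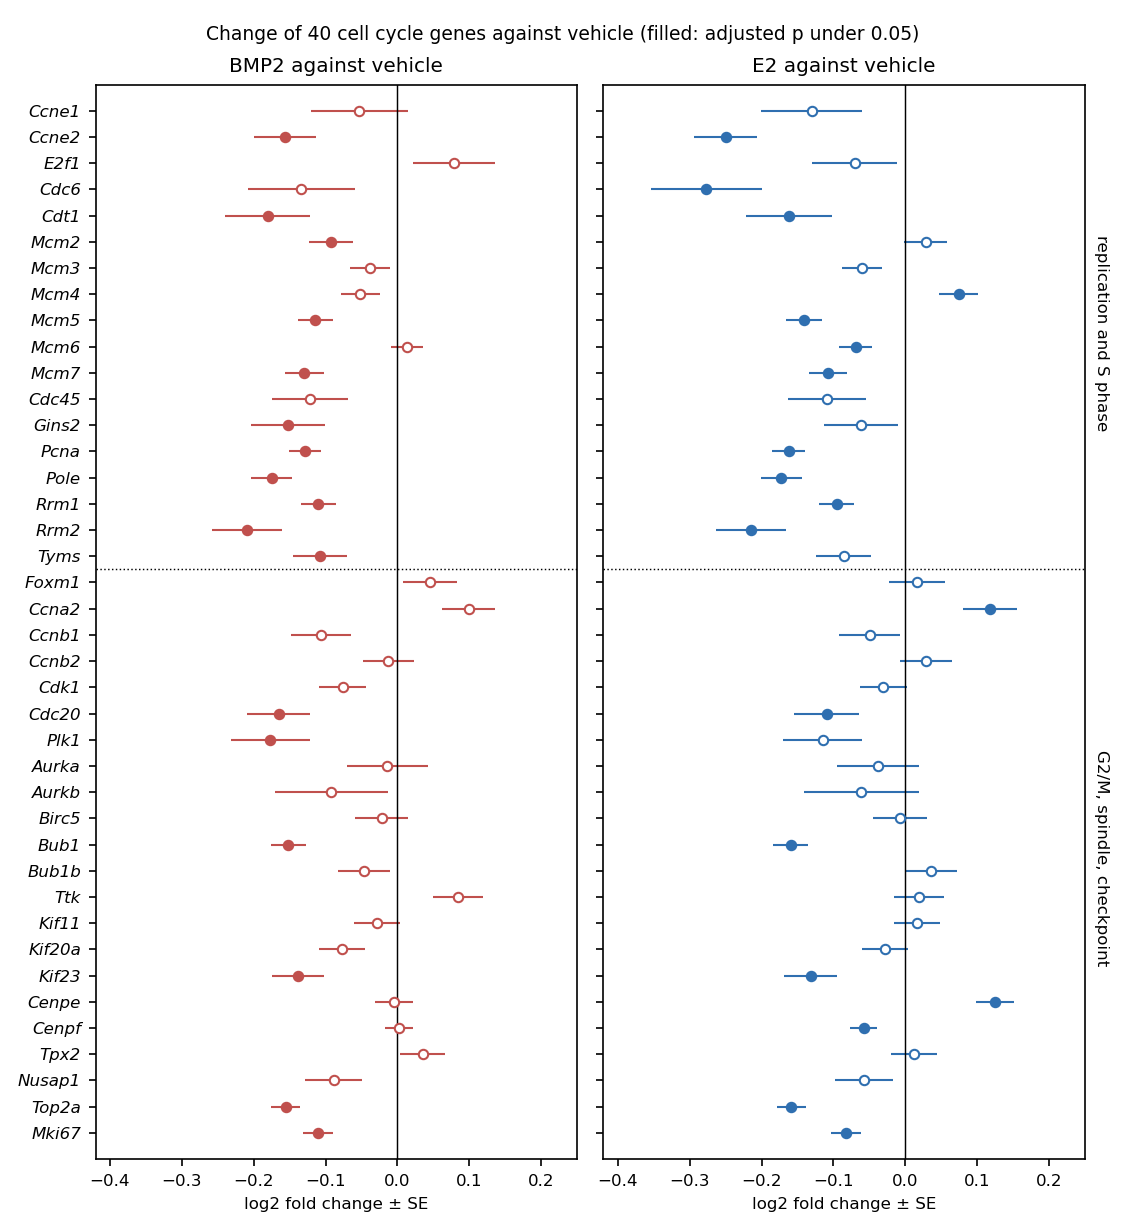
Log2 fold change with SE (edgeR) of each of the 40 genes with BMP2 (left) and with E2 (right) against vehicle. Filled points passed at an adjusted p under 0.05. In the upper block, replication and S phase, 16 of 18 points lie left of 0 in each panel. In the lower block 17 of 22 do with BMP2 and 14 of 22 with E2, where Ccna2 and Cenpe are filled on the right.

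The comparison of E2 with vehicle asks the same of the oestrogen. With E2, 16 of the 40 genes fell, 3 rose and 21 did not pass, where 32.3% of all genes tested were called, 16.5% lower and 15.8% higher. Among replication and S phase genes 10 of 18 fell and 1 rose (Mcm4), and among G2 and mitosis genes 6 of 22 fell and 2 rose (Ccna2 and Cenpe). The medians were -0.11 and -0.034 log2, against -0.0026 over all genes. The share that fell was 55.6% of the S phase genes and 27.3% of the G2 and mitosis genes. In 19 of the 40 genes all 3 E2 libraries lay below all 3 vehicle libraries and in 3 above, against 20.9% and 20.4% of all genes. Of the called members, Cdc6 alone differed by over 1.2-fold.

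The loading factors fell with E2. Cdc6, which recruits the helicase to origins, was 1.21-fold lower with E2 (9.54 ± 0.765 against 11.5 ± 0.931 CPM, -0.28 ± 0.077 log2 units, SE, edgeR adjusted p = 0.00241). Cdt1, its partner, was 1.12-fold lower (-0.16 ± 0.060 log2 units, SE, edgeR adjusted p = 0.0281), a call lost without vehicle replicate 2 (0.186), without E2 replicate 1 (0.0939) and without E2 replicate 2 (0.0619), and also after correcting for GC content and transcript length (-0.13 log2 units, adjusted p = 0.0883). Ccne2 was 1.19-fold lower (-0.25 ± 0.044 log2 units, SE, edgeR adjusted p = 7.6e-07), with the 9 values given above, while Ccne1 (-0.13, adjusted p = 0.150) and E2f1 (-0.070, 0.397) did not pass. At the fork, Pcna was 1.12-fold lower (-0.16 ± 0.023 log2 units, SE, edgeR adjusted p = 6.8e-10) and Pole 1.13-fold lower (-0.17 ± 0.028 log2 units, SE, edgeR adjusted p = 1.6e-07). Of the nucleotide synthesis genes, Rrm1 (-0.10, 7.9e-04) and Rrm2 (-0.21, 1.7e-04) fell, and Tyms (-0.086, 0.0741) passed only without E2 replicate 2 (0.0457) among those fits. Cdc45 (-0.11, 0.113) and Gins2 (-0.062, 0.393) did not pass.

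The helicase subunits did not move together with E2. Mcm5 (-0.14 ± 0.025 log2 units, SE, edgeR adjusted p = 9.9e-07), Mcm7 (-0.11 ± 0.027 log2 units, SE, edgeR adjusted p = 6.8e-04) and Mcm6 (-0.069 ± 0.023 log2 units, SE, edgeR adjusted p = 0.0125) fell. Mcm7 did not pass without vehicle replicate 1 (0.0537), nor Mcm6 without vehicle replicate 1 (0.0544) and without E2 replicate 2 (0.0798). Mcm6 was at 183, 181 and 183 CPM with vehicle, 187, 177 and 188 CPM with BMP2 and 173, 172 and 176 CPM with E2, with every E2 library below both other groups, which overlapped. Mcm4 rose (0.075 ± 0.027 log2 units, SE, edgeR adjusted p = 0.0239). It was at 106, 105 and 109 CPM with vehicle, 103, 103 and 104 CPM with BMP2 and 111, 112 and 115 CPM with E2, in the order BMP2, vehicle, E2 with no overlap. That rise was lost without vehicle replicate 1 (0.0751), without vehicle replicate 2 (0.105) and without E2 replicate 3 (0.132), and also with DESeq2 and after correcting for GC content and transcript length (adjusted p = 0.0956). Mcm2 (0.028, 0.521) and Mcm3 (-0.060, 0.0868) did not pass, although Mcm3 did without E2 replicate 1 (0.0207).

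Among the G2 and mitosis genes, Top2a (-0.16 ± 0.020 log2 units, SE, edgeR adjusted p = 1.5e-11), Bub1 (-0.16 ± 0.025 log2 units, SE, edgeR adjusted p = 2.2e-08) and Mki67 (-0.082 ± 0.021 log2 units, SE, edgeR adjusted p = 7.0e-04) fell with E2. Kif23 fell too (-0.13 ± 0.037 log2 units, SE, edgeR adjusted p = 0.00246), but not without E2 replicate 2 (0.0646). Cdc20 fell at the edge of the threshold (-0.11 ± 0.045 log2 units, SE, edgeR adjusted p = 0.0479) and did not pass without vehicle replicate 1 (0.198), without vehicle replicate 2 (0.177), without E2 replicate 2 (0.0868) and without E2 replicate 3 (0.233). Its call was also lost after the GC and length correction (-0.072 log2 units, adjusted p = 0.205), with median-ratio factors (0.0520), with no filter (0.0551) and with vehicle and E2 fitted alone (0.0517). Cenpf, a large kinetochore protein, was at 374, 369.5 and 367 CPM with vehicle, 376, 367 and 369 CPM with BMP2 and 358, 355 and 354 CPM with E2. Only the E2 libraries stood apart, 1.04-fold lower (-0.058 ± 0.019 log2 units, SE, edgeR adjusted p = 0.0127), and the call was lost without vehicle replicate 1 (0.0703), without E2 replicate 2 (0.0503) and without E2 replicate 3 (0.0600).

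Cenpe, the kinesin that carries chromosomes to the spindle equator (chromosome 3 from 135212537 to 135273611), rose with E2. It was at 112, 114 and 112 CPM with vehicle, 114, 110.3 and 112 CPM with BMP2 and 124, 122 and 123 CPM with E2. The E2 libraries were above all others, which overlapped, 1.09-fold higher (0.13 ± 0.026 log2 units, SE, edgeR adjusted p = 3.6e-05). Ccna2 also rose (0.12 ± 0.037 log2 units, SE, edgeR adjusted p = 0.00850), but not without vehicle replicate 2 (0.0646), and without that library 1 member rose in place of 3; the antisense gene Exosc9 covers 12.5% of its exon bases. The other mitotic genes did not pass, among them Foxm1 (0.016, 0.800), Ccnb1 (-0.050, 0.395), Ccnb2 (0.028, 0.600), Cdk1 (-0.031, 0.523) and Birc5 (-0.007, 0.914). The same held for Aurka (-0.038, 0.663), Aurkb (-0.061, 0.609), Bub1b (0.036, 0.492), Ttk (0.019, 0.734), Kif11 (0.016, 0.758), Kif20a (-0.028, 0.554), Tpx2 (0.012, 0.817) and Nusap1 (-0.058, 0.296). Plk1 did not pass either (-0.11, 0.104). With E2, DESeq2 did not call Cdt1, Mcm4 and Cdc20. The GC and length correction added calls of Mcm3 (0.0368) and Tyms (0.0149), both lower, with E2, and of Cdk1 (0.0367) and Kif20a (0.0344), both lower, with BMP2.

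**Figure D3:**
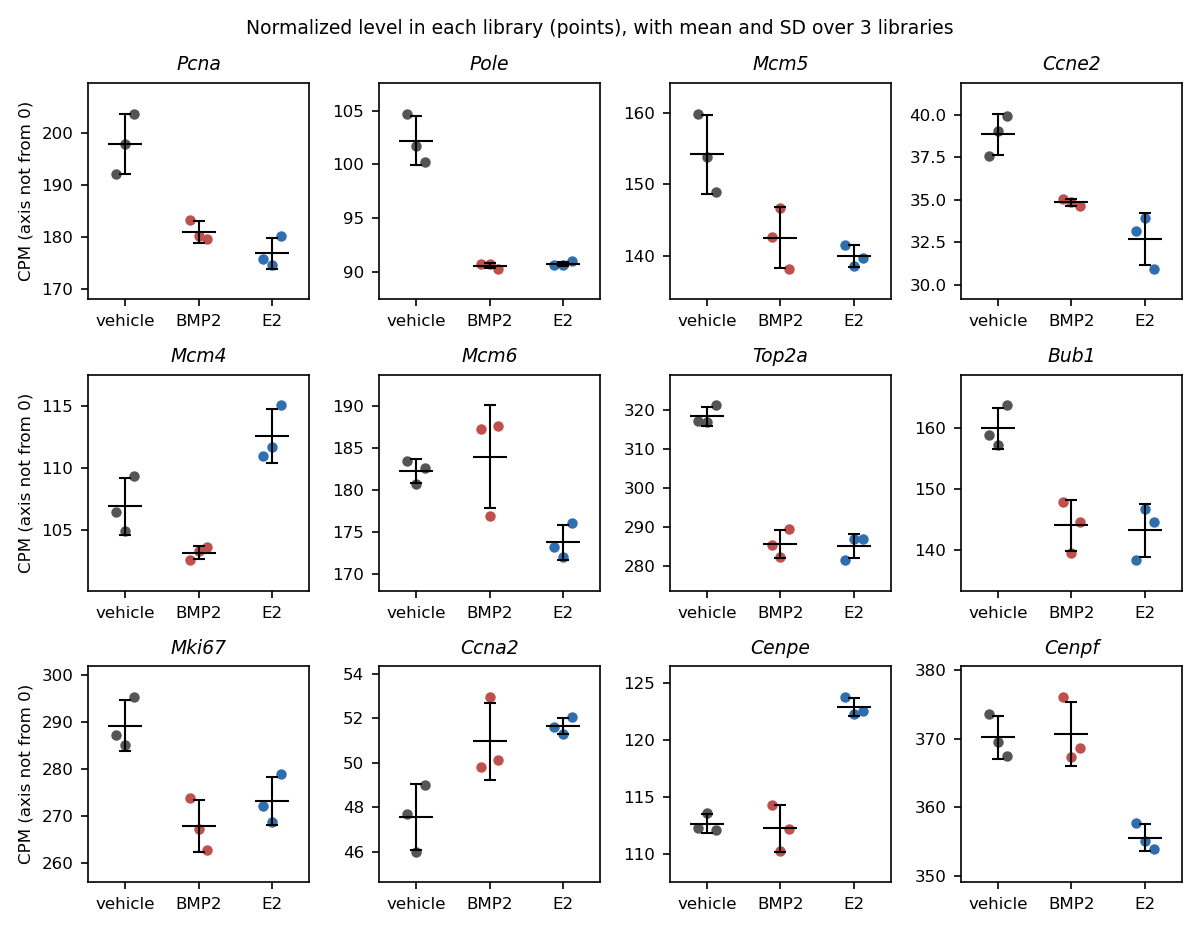
TMM-normalized CPM of 12 of the genes in each library (points), with the mean and SD over 3 libraries, for vehicle (grey), BMP2 (red) and E2 (blue); the vertical axes do not start at 0. Pcna, Pole, Mcm5, Ccne2, Top2a, Bub1 and Mki67 are below vehicle with both treatments, Mcm4 and Cenpe stand highest with E2, and Mcm6 and Cenpf stand lowest with E2.

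Set directly against BMP2, E2 gave few differences among these genes: 3 were higher with E2, 3 lower and 34 did not pass, where 28.2% of all genes tested were called, 14.0% higher and 14.1% lower. All 3 E2 libraries lay above all 3 BMP2 libraries for 4 members (Mcm2, Mcm4, Cenpe and Cdk1) and below them for 4 (E2f1, Mcm6, Cenpf and Ccne2), against 19.8% and 19.8% of all genes. The 3 higher were Mcm2 (0.12 ± 0.030 log2 units, SE, edgeR adjusted p = 7.6e-04), Mcm4 (0.13 ± 0.027 log2 units, SE, edgeR adjusted p = 6.3e-05) and Cenpe (0.13 ± 0.026 log2 units, SE, edgeR adjusted p = 1.7e-05). Mcm2 was at 90.9, 89.7 and 86.2 CPM with vehicle, 80.6, 87.1 and 82.6 CPM with BMP2 and 92.7, 87.4 and 92.1 CPM with E2, so that E2 lay above BMP2 in all libraries and vehicle overlapped with both. The 3 lower with E2 were Mcm6 (-0.082 ± 0.023 log2 units, SE, edgeR adjusted p = 0.00247), Cenpf (-0.060 ± 0.019 log2 units, SE, edgeR adjusted p = 0.0107) and E2f1 (-0.15 ± 0.058 log2 units, SE, edgeR adjusted p = 0.0426). E2f1 was at 18.8, 19.0 and 17.7 CPM with vehicle, 19.4, 19.7 and 19.6 CPM with BMP2 and 17.7, 18.4 and 16.8 CPM with E2, highest with BMP2. Calls were lost for E2f1 without BMP2 replicate 1 (0.0714), without BMP2 replicate 2 (0.100), without BMP2 replicate 3 (0.0925), without E2 replicate 1 (0.0787) and without E2 replicate 3 (0.208), and for Cenpf without BMP2 replicate 1 (0.105) and without E2 replicate 3 (0.0517), so that 1 member was called lower without either BMP2 replicate 1 or E2 replicate 3. DESeq2 did not call E2f1 either, nor did the fit with no filter (0.0513) or the GC and length correction (-0.11 log2 units, adjusted p = 0.136).

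For several genes that fell against vehicle with each treatment, the 95% interval of the difference between E2 and BMP2 spanned 0. It was -0.043 to 0.037 log2 for Top2a, -0.054 to 0.059 for Pole, -0.057 to 0.041 for Bub1 and -0.078 to 0.012 for Pcna. For Cdc6, which passed with E2 alone against vehicle, it was -0.30 to 0.011. That of Ccne2, which fell with each treatment, was -0.18 to -0.0059, all below 0. The difference of Ccne2 did not pass (edgeR adjusted p = 0.105). The medians over the S phase and the G2 and mitosis genes were -0.0013 and 0.030 log2, against -0.0014 over all genes. With 1 library left out the S phase median ran from -0.0164 (without E2 replicate 3) to 0.00792 (without BMP2 replicate 1), on both sides of 0, and that of the G2 and mitosis genes from 0.0145 (without E2 replicate 3) to 0.0402 (without E2 replicate 2). After the GC and length correction the latter was 0.00981, and that correction added calls of Ccne2 (0.0499) and Ttk (0.0473), both lower with E2. Within the MCM helicase, Mcm2 and Mcm4 stood above and Mcm6 below 0, and the intervals of Mcm3 (-0.077 to 0.033), Mcm5 (-0.076 to 0.023) and Mcm7 (-0.032 to 0.076) spanned 0. Bub1b (0.083, adjusted p = 0.0758) passed only without E2 replicate 3 (0.0353) among the fits that left out 1 library.

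**Figure D4:**
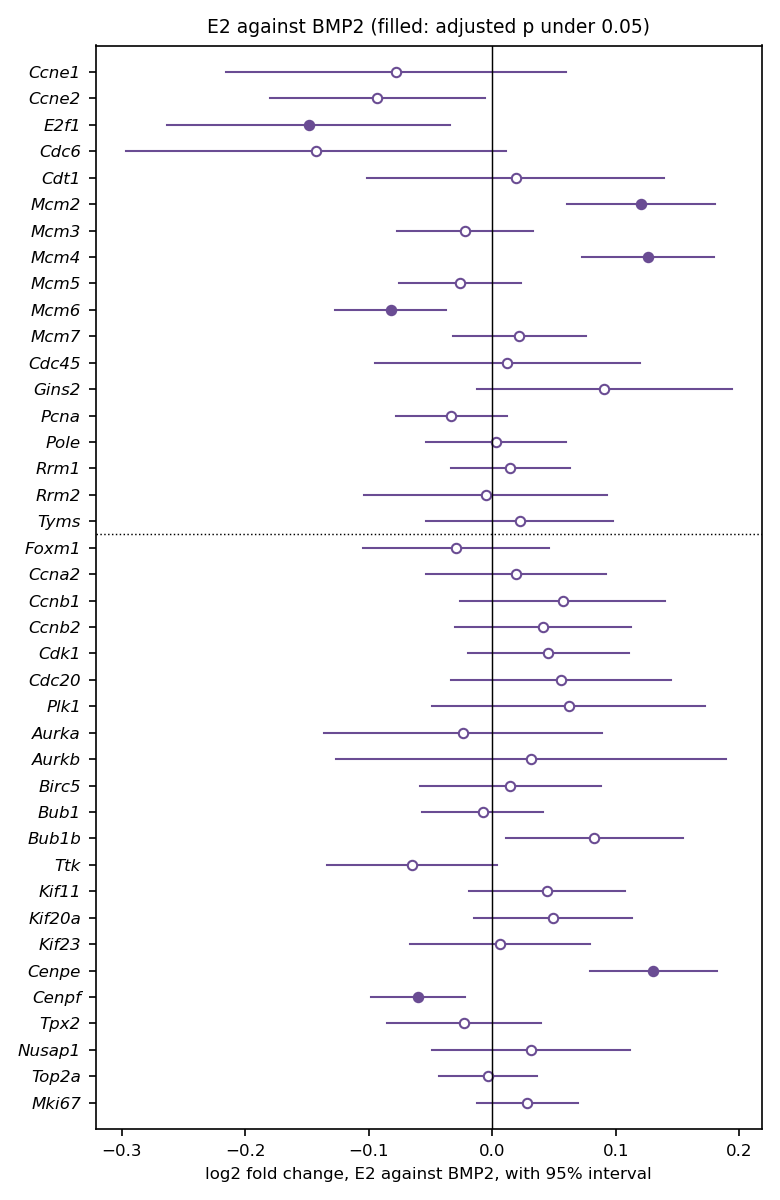
Log2 fold change of each of the 40 genes with E2 against BMP2 (points) with its 95% interval (lines). Filled points passed at an adjusted p under 0.05: Mcm2, Mcm4 and Cenpe to the right of 0 and E2f1, Mcm6 and Cenpf to the left.

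The promoter words were found both among genes that fell and among genes that did not pass. With BMP2, TTTGAA was in the windows of 5 of the 6 G2 and mitosis genes that fell and of 7 of the 11 that did not pass, counting genes with a window. With E2 these counts were 5 of 6 and 7 of 10. An E2F word was in 3 of 8 S phase genes that fell with BMP2 and 3 of 6 that did not pass, and in 5 of 8 and 1 of 6 with E2. Mcm5 and Mcm6 both hold the E2F pair printed above. With BMP2 Mcm5 fell and Mcm6 did not pass, and with E2 both fell. Bub1, which fell with E2, and Cenpe, which rose, both hold CCAAT and no TTTGAA in the windows used. No test was made of these counts.

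Other genes of the same processes were taken from lists of non-members. Of 40 further replication genes, 4 fell and 1 rose with BMP2 (median -0.039 log2), and 11 fell and 2 rose with E2 (median -0.036). In either direction 12.5% were called with BMP2 and 32.5% with E2, near the 13.7% and 32.3% of all genes. By direction, 10% fell and 2.5% rose with BMP2, against 6.85% and 6.84% of all genes. With E2, 27.5% fell and 5% rose, against 16.5% and 15.8% of all genes. Chaf1b, a subunit of the chromatin assembly factor that follows the fork, fell with both (log2 fold changes -0.25 and -0.26), as did Lig1, the DNA ligase of the lagging strand (-0.10 and -0.16). Pole2, another subunit of the polymerase of Pole, fell with BMP2 (-0.23, adjusted p = 0.0132) and did not pass with E2 (-0.035, 0.749). Timeless, a fork protection gene, rose with E2 (0.23 ± 0.038 log2 units, SE, edgeR adjusted p = 1.9e-07) and was higher with E2 than with BMP2 (0.24, 2.3e-08). Pola1 of the priming polymerase was also higher with E2 than BMP2 (0.10, 0.0212) and Slbp, which binds histone mRNA, lower (-0.075, 0.0250). Of the 40 genes, 3 were higher (7.5%) and 2 lower (5%) with E2 than with BMP2, against 14.0% and 14.1% of all genes.

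Of 38 further mitosis genes, 12 fell and none rose with BMP2 (median -0.052), and 7 fell and 2 rose with E2 (median -0.011). The shares that fell were 31.6% with BMP2, against 6.85% of all genes, and 18.4% with E2, near the 16.5% of all genes; 5.26% rose with E2, against 15.8%. Ncapd2, a condensin subunit, fell with both (log2 fold changes -0.19 and -0.21, adjusted p = 8.1e-06 and 2.1e-07). Ube2c, the ubiquitin-conjugating enzyme of the anaphase-promoting complex, fell by 0.26 with BMP2 and by 0.19 with E2 on the log2 scale (adjusted p = 0.00193 and 0.0148). The kinesin gene Kif18a also fell with both (-0.13 and -0.094, adjusted p = 0.0116 and 0.0481). The condensin gene Ncapg (-0.086) and the centromeric histone gene Cenpa (-0.20) fell with E2 and did not pass with BMP2 (-0.067 and -0.12, adjusted p = 0.0630 and 0.223). Against BMP2, E2 gave 6 higher (15.8%, near the 14.0% of all genes) and none lower, where 14.1% of all genes were lower. Among the 6 were Hmmr, a spindle protein (0.13), Smc2 (0.089) and Ncaph (0.17), both of condensin. Of 21 G1 cyclins, kinases and RB and E2F genes, 6 fell (28.6%) and none rose with BMP2, and 4 fell (19.0%) and 6 rose (28.6%) with E2. Of all genes, 6.85% fell and 6.84% rose with BMP2, and 16.5% fell and 15.8% rose with E2. For E2 against BMP2, 5 of the 21 were higher (23.8%) and 2 lower (9.52%), against 14.0% and 14.1% of all genes.

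**Figure D5:**
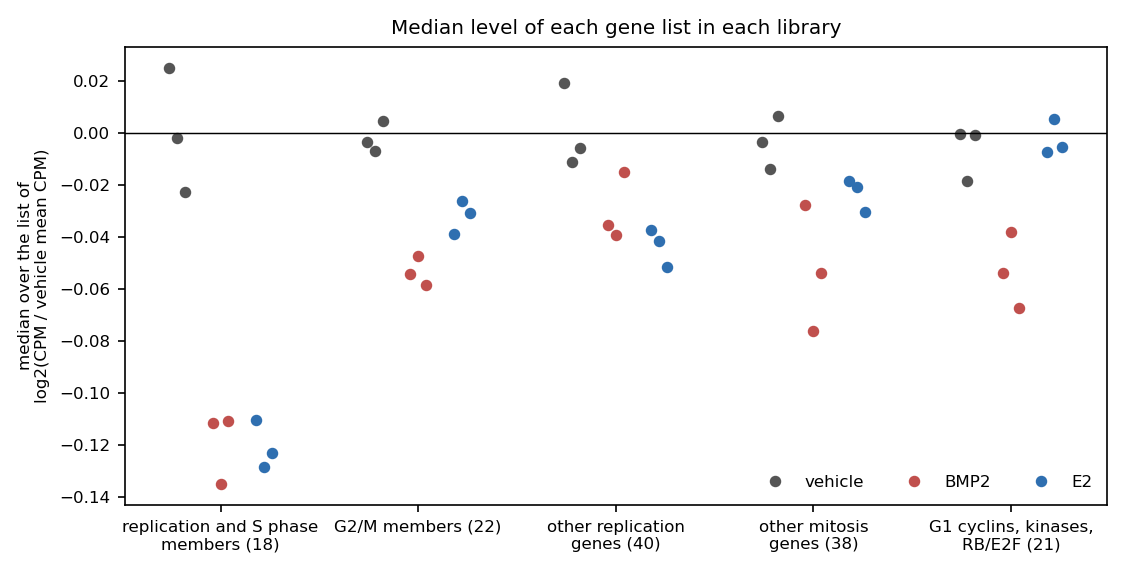
Median over each gene list of log2(CPM divided by the vehicle mean CPM), 1 point per library, for the 2 lists of members and the 3 lists of other cell cycle genes. For the replication and S phase members the treated libraries lie at -0.135 to -0.111 with BMP2 and -0.128 to -0.110 with E2, and vehicle at -0.0229 to 0.0249; for the G1 list E2 overlaps with vehicle.

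Marker genes of the ovary's cell types also moved, and their part in these results was not tested. No marker listed was at 0 in any library. Beside the counts below, 6.84% of all genes tested rose and 6.85% fell with BMP2, and 15.8% rose and 16.5% fell with E2. The 7 genes of surface epithelium and mesothelium all fell with BMP2 and with E2, and their sum in the vehicle libraries was 607 to 632 CPM, against 532 to 544 CPM under BMP2 and 416 to 425 CPM under E2. Of 11 oocyte markers 6 rose and 2 fell with each treatment, and their sums overlapped (1967 to 2079, 2007 to 2066 and 2021 to 2041 CPM). Of 10 pregranulosa markers 4 rose and 1 fell with BMP2, and 5 rose and 2 fell with E2 (sums of 2674 to 2715, 2698 to 2723 and 2574 to 2605 CPM). Of 9 stroma markers 1 rose and 2 fell with BMP2, and 4 rose and 5 fell with E2 (3179 to 3239, 3287 to 3339 and 2683 to 2753 CPM). Endothelial markers (7 genes) rose in 2 with BMP2 and rose in 6 and fell in 1 with E2 (222 to 228, 223 to 231 and 222 to 235 CPM). Macrophage markers (7 genes) did not pass with BMP2 and 4 fell with E2 (82.5 to 85.6, 78.0 to 80.0 and 72.7 to 73.8 CPM), and of 7 erythroid markers 4 rose with BMP2 and 5 with E2 (23.9 to 26.6, 33.7 to 34.9 and 38.4 to 43.2 CPM). The summed level of the 18 S phase members was 1434 to 1463, 1349.7 to 1362 and 1345 to 1359.7 CPM in the same order, and that of the 22 G2 and mitosis members 2061 to 2082, 1962 to 1999.9 and 1993 to 1997 CPM, with treated libraries below vehicle in both.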

How the data were processed

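RNA of cultured mouse ovaries was sequenced from a kit that does not keep strand (Illumina TruSeq V2, per the labels' protocols). The authors deposited raw read counts per gene symbol; TopHat2, HTSeq, DESeq2 and build mm10 are named, without versions, in the submitters' processing notes, and the annotation is not given in the sources used here. The 5 summary rows of each table, 38.2 to 39.7% of its reads, were left out. Counts of all 9 libraries were fitted together in edgeR 4.0.16 (R 4.3.3): filterByExpr (minimum count 10), TMM factors, and a robust quasi-likelihood test with 6 residual degrees of freedom, adjusted by Benjamini-Hochberg over 16360 of 23420 genes. Genes with an adjusted p under 0.05 were called. Chi-square per gene between replicates was 1.51 to 2.37, above the sampling noise of a library counted again.

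Exon lengths and overlaps came from GENCODE vM21 (GRCm38) and promoters from RefSeq. The 40 genes and all lists were chosen with earlier results of these data known. All 40 are reported, and other lists by counts and at most the 3 called genes with the smallest adjusted p for each comparison. Values in all libraries are given for the 4 members with the smallest adjusted p for each comparison and list. They are also given for some, not all, of the members whose direction differed between comparisons or from their list. Alternatives were DESeq2 1.42.0, other scaling and filters, a replicate block, single libraries left out and, chosen after seeing the data, an offset for GC content and length. The model was tested on simulated data. How often it recovered changes as small as those of the 40 genes is not given here.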

Additional observations from a re-analysis of the deposited data

How the results depend on the processing

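No member changed direction while called under any alternative. Calls that held in every alternative numbered 11 of 17 with BMP2, 11 of 19 with E2 and 4 of 6 for E2 against BMP2. With BMP2, 1 member was higher under total counts without scaling and 1 under the replicate block. With 1 library left out, 0 to 2 were higher and 11 to 16 lower with BMP2, 1 to 3 higher and 12 to 16 lower with E2, and 3 to 4 higher and 1 to 3 lower for E2 against BMP2. The E2 medians then ran from -0.127 to -0.0806 (S phase) and from -0.0497 to -0.0207 (G2 and mitosis). After correction for GC content and length, the G2 and mitosis median was -0.0482 with E2 and 0.00981 for E2 against BMP2. At an adjusted p under 0.01, 1 member was lower for E2 against BMP2. DESeq2 called 710 genes higher and 676 lower with BMP2, against 1119 and 1120. Scaling by total counts gave 1335 higher and 980 lower with BMP2, and 2029 and 2639 for E2 against BMP2 (2297 and 2310 with TMM). Same-numbered replicates deviated together with correlations of -0.0191 to 0.0723 over 11938 genes. These values cannot tell whether such libraries shared a culture or a batch. The replicate block gave 1252 higher and 1260 lower with BMP2, against 1119 and 1120 without it. With E2 it gave 2705 and 2807 (2577 and 2701 without it), and for E2 against BMP2 2433 and 2442 (2297 and 2310). The cause of these shifts was not tested.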

Other observations

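Among genes that act before S phase, D-type cyclin and Myc genes were called. Ccnd1, a D-type cyclin gene that mitogens induce, fell with BMP2 (-0.33 ± 0.048 log2 units, SE, edgeR adjusted p = 2.7e-08) and with E2 (-0.31 ± 0.049 log2 units, SE, edgeR adjusted p = 5.3e-08). It was at 30.6, 33.2 and 31.0 CPM with vehicle, 24.1, 25.7 and 25.7 CPM with BMP2 and 24.6, 26.5 and 25.5 CPM with E2, with no overlap of treated and vehicle libraries. The other D-type cyclin genes fell with E2, Ccnd2 by 0.15 and Ccnd3 by 0.22 on the log2 scale (adjusted p = 2.5e-11 and 1.5e-12). With BMP2, Ccnd2 also fell, by 0.061 on the log2 scale (adjusted p = 0.0180), and Ccnd3 did not pass (-0.047, 0.247).

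Myc, a transcription factor gene that drives growth and cell cycle entry, fell with BMP2 and rose with E2. It was at 25.9, 25.2 and 27.0 CPM with vehicle, 19.8, 19.6 and 19.8 CPM with BMP2 and 28.4, 29.1 and 28.8 CPM with E2, in the order BMP2, vehicle, E2 with no overlap. With BMP2 it was 1.32-fold lower (-0.40 ± 0.052 log2 units, SE, edgeR adjusted p = 2.1e-10) and with E2 higher (0.14 ± 0.049 log2 units, SE, edgeR adjusted p = 0.0168), and E2 against BMP2 gave 1.46-fold (0.54 ± 0.051 log2 units, SE, edgeR adjusted p = 4.8e-18). Mycn, its paralog in embryonic tissues, fell with BMP2 (-0.19 ± 0.051 log2 units, SE, edgeR adjusted p = 0.00368) and rose with E2 (0.21 ± 0.050 log2 units, SE, edgeR adjusted p = 4.0e-04). Cdk6, a partner of D-type cyclins, fell with BMP2 (-0.34 ± 0.066 log2 units, SE, edgeR adjusted p = 3.0e-05). These genes belong to a list of 21 whose counts are given with the other cell cycle lists.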
